A study of Mus musculus with 12 samples.

Results

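The genes examined here are the 2 metallothioneins Mt1 and Mt2, the metal-regulated transcription factor gene Mtf1, the zinc exporters Slc30a1, Slc30a5 and Slc30a7, and the zinc importers Slc39a1, Slc39a6, Slc39a10 and Slc39a14. They were taken by gene symbol from the 55487 Ensembl genes of the count table, with earlier results of these data known. All 10 passed the filter on low counts that 14175 genes passed. The libraries came from C2C12 cells, a mouse myoblast line that fuses into multinucleated myotubes when serum is lowered. Myotubes were formed over 5 days in DMEM with 2% horse serum and penicillin/streptomycin, and the medium was then replaced for 24 h by DMEM with penicillin/streptomycin and either 4% horse serum (control, libraries 1 to 6) or 4% STEM (libraries 7 to 12). STEM is material secreted by human embryonic stem cells that had begun to differentiate, free of cells and held in a solution of proteins, amino acids, vitamins and minerals, and it took the place of horse serum, so the addition of STEM and the removal of horse serum cannot be told apart. The data hold no measure of zinc in either medium.

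Total counts were between 13285472 and 24536264 per library. The defining myotube genes (Myog, Mymk, Myh3, Acta1, Ckm, Tnnt3, Des and Actn2) were detected in both groups, with a summed level of 6463 to 11040 CPM (counts scaled by library total and TMM factor) in the horse serum libraries and 8942 to 11030 CPM in the STEM libraries. Of these 8 genes, 1 (Mymk) was higher and 1 (Myog) lower with STEM, where 18.9% of all tested genes were higher and 17.4% lower. Without horse serum library 6, which is described next, 1 (Mymk) was higher and 4 (Myog, Acta1, Tnnt3 and Actn2) were lower. The shares of all tested genes were then 26.3% higher and 24.5% lower. The macrophage markers Adgre1 and Ptprc and the pluripotency gene Pou5f1 were at or near 0 CPM in both groups, and the 4 macrophage and leukocyte markers together reached at most 5.49 CPM. Of those 4, Cd68 did not pass, and Csf1r, too low to be tested with all libraries, was at 0.288 ± 0.198 CPM in horse serum and 0.916 ± 0.315 CPM in STEM (SD, n = 6) and was called higher without library 6 (log2 fold change 1.45, adjusted p = 0.00234 in edgeR). Horse serum library 6 stood apart: its myotube markers summed to 6463 CPM against 10210 to 11040 CPM in the other horse serum libraries. Its markers of unfused and cycling cells (Pax7, Myf5, Mki67, Top2a and Ccnb1) summed to 863 CPM against 539 to 786 CPM. They did not move together: within the horse serum group, Mki67 and Ccnb1 were highest in library 6, and the myoblast genes Pax7 and Myf5 were lowest there. The markers of unfused and cycling cells summed to 428 to 498 CPM in STEM. Of the 5, 3 (Myf5, Mki67 and Top2a) were lower, where 17.4% of all tested genes were, and Pax7 and Ccnb1 did not pass. The part of cell composition in the differences given next was not tested. In bulk RNA, fewer cells of a type and less RNA per cell cannot be told apart. Values without library 6 are given beside the results of the 10 genes that it moves.

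Zinc is needed by many enzymes and transcription factors, and cells keep its free level low. Metallothioneins are small proteins rich in cysteine that hold zinc and copper in the cytosol. When zinc rises, Mtf1 binds metal response elements in the promoters of Mt1, Mt2 and Slc30a1 and raises their transcription. Exporters of the Slc30 family (ZnT proteins) move zinc out of the cytosol, and importers of the Slc39 family (ZIP proteins) move it in. Slc39a10 is known as an importer gene whose transcript falls when zinc is high and rises when zinc is low.

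The start regions of Mt1, Mt2 and Slc30a1 are shown because these genes are textbook targets of Mtf1 and were the 3 genes of the set that were lower with STEM. Each line runs 5′ to 3′ on the strand of the gene, from 250 bases before to 30 bases after the RefSeq start (build GRCm38.p6), and capitals mark the core of the metal response element. The core was searched on both strands as TGCACNC and TGCGCNC, and no matches overlapped in these regions. The regions are chr8:94178839-94179118 (plus strand) for Mt1, chr8:94172368-94172647 (plus strand) for Mt2 and chr1:191906531-191906810 (plus strand) for Slc30a1.
Mt1: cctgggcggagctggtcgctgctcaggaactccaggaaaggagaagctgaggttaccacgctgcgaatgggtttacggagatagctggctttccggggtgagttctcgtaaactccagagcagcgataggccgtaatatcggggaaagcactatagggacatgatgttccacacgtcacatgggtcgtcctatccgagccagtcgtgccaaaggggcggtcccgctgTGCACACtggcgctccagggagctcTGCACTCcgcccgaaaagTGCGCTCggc
Mt2: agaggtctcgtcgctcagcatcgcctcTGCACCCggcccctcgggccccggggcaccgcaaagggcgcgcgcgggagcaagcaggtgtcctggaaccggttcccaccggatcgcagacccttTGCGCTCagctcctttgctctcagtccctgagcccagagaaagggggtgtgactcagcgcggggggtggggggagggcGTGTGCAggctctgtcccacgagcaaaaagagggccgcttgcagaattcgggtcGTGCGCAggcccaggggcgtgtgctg
Slc30a1: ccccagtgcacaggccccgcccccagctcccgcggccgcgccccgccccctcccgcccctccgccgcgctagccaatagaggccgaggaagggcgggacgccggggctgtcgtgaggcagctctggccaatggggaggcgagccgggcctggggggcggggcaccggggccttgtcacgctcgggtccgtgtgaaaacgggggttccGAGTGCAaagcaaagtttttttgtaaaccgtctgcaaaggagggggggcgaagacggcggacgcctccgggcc

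Mt1 held 3 matches to the core, starting at positions -23, 3 and 21 from the RefSeq start, where position 1 is the first annotated base. Transcription starts were not measured here, so a match after position 1 need not lie in the transcript, and the window may miss part of a promoter. All 3 were on the strand of the gene. Mt2 held 4 matches, at -223 and -128 on its own strand and at -50 and 5 on the opposite strand, and Slc30a1 held 1, at -43 on the opposite strand. Of 32851 mouse start regions of the same length, 24.1% held at least 1 match, 1.73% held at least 3 and 0.405% held at least 4. Slc30a5 held 1 match, and none was found for Mtf1, Slc30a7, Slc39a1 or either RefSeq start of Slc39a10. No match says only that these letters were not in this window. The RefSeq start of Mt2 lay 46 bases before that of the principal GENCODE transcript, and the RefSeq start of Mt1 lay 7 bases after it. The RefSeq starts of Slc39a10 lay 71730 bases before and 428 bases after the start of its principal transcript. Neither window of Slc39a10 held the bases directly before that principal start. Of 334 tested genes with at least 3 matches, 16.2% were lower and 23.1% higher with STEM, against 18.3% and 20.7% of all 9925 tested genes with a start region.

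**Figure D1:**
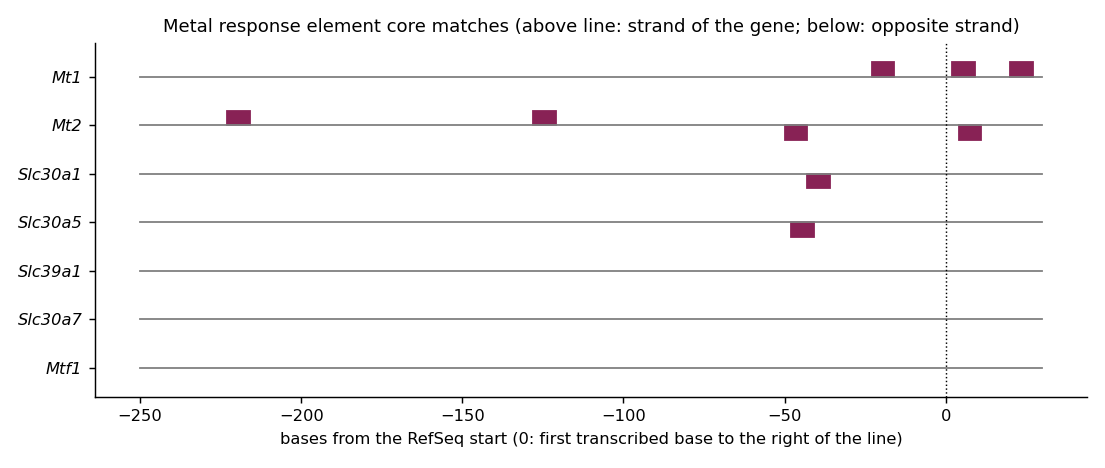
Matches to the metal response element core (boxes) in 7 genes with a RefSeq start region, plotted by distance in bases from the RefSeq start (x axis), without Slc39a10, which has a pair of starts. Boxes above a line are on the strand of the gene and boxes below it on the opposite strand; Mt1 has 3, Mt2 has 4, Slc30a1 and Slc30a5 have 1 each, and the other genes shown have none.

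The first comparison asked how many of the 10 genes differed between 4% STEM and 4% horse serum. With edgeR's quasi-likelihood test and Benjamini-Hochberg adjustment over the 14175 tested genes, 9 of the 10 were differentially expressed (adjusted p no greater than 0.05), where 36.4% of all tested genes were. Mt1, Mt2 and Slc30a1 were lower with STEM (3 of 10, where 17.4% of all tested genes were lower). Mtf1, Slc30a5, Slc30a7, Slc39a1, Slc39a6 and Slc39a10 were higher (6 of 10, where 18.9% of all tested genes were higher). For 7 of the genes the horse serum and STEM values did not overlap, 4 higher and 3 lower with STEM, where this held for 17.2% of all tested genes (8.68% higher and 8.52% lower). The 10 genes had a median log2 fold change of 0.17, beside 0.01 for all tested genes. Without horse serum library 6, all 10 genes were differentially expressed (7 higher and 3 lower), where 50.8% of 14267 tested genes were, and 9 did not overlap, where 33.3% of tested genes did not. Nothing in the labels states whether the 6 libraries of a group came from separate cultures, so the p-values measure the spread between these libraries.

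**Figure D2:**
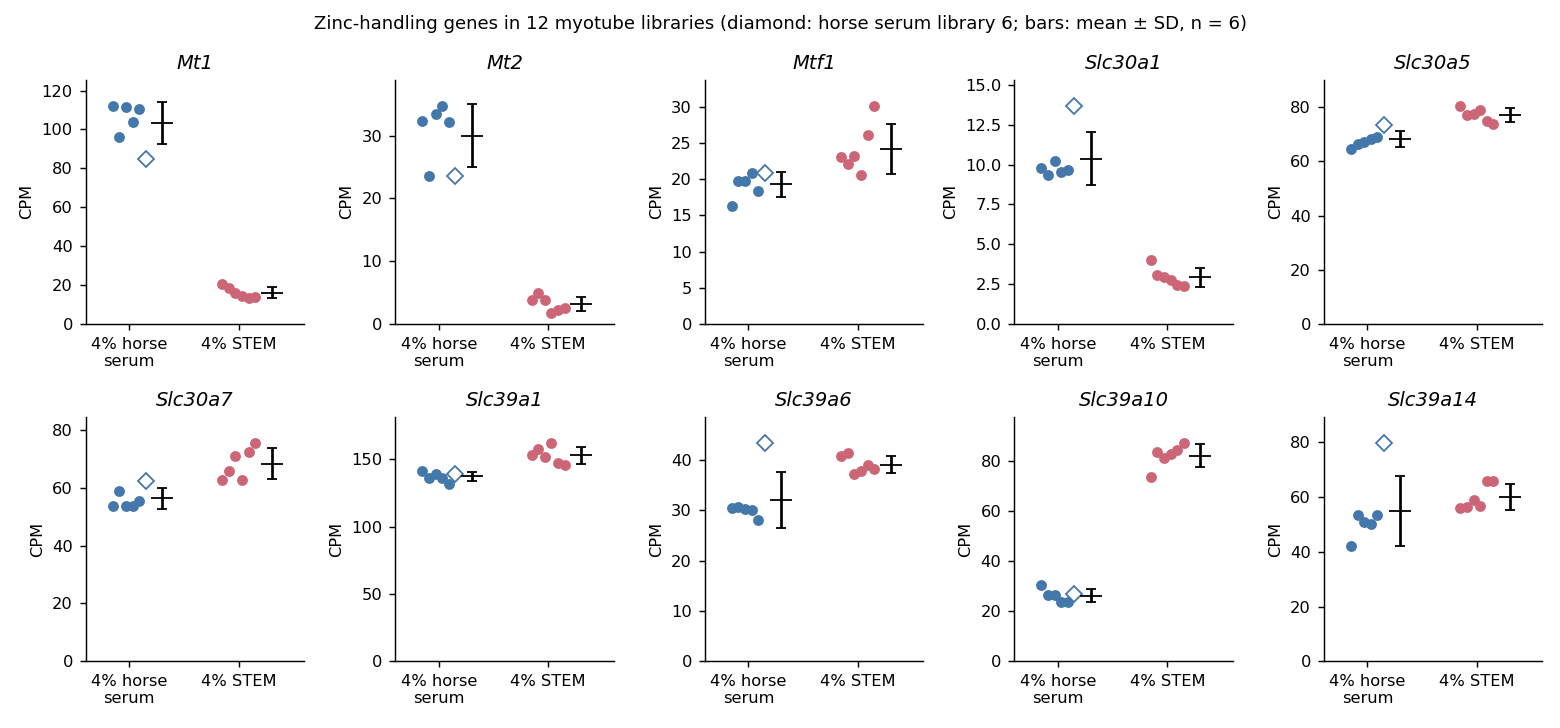
CPM of each of the 10 genes (y axis, from 0) in each library with 4% horse serum (blue) or 4% STEM (red), with the mean ± SD of 6 libraries in black and horse serum library 6 as an open diamond. Mt1, Mt2 and Slc30a1 fell to low values in every STEM library, Slc39a10 rose in every STEM library, and the other genes moved by smaller amounts.

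Both metallothioneins were among the 6 tested genes with the largest falls. Mt1 (ENSMUSG00000031765, chromosome 8, 94179082 to 94180327, plus strand) had a lowest, median and highest value of 85.02, 107 and 112 CPM in horse serum and of 13.2, 15.3 and 20.7 CPM in STEM. The lowest horse serum value of Mt1, in library 6, was still well above the highest STEM value. These values rest on 1247 to 1830 counts per horse serum library and 207 to 507 counts per STEM library. Mt1 was 6.35-fold lower with STEM (log2 fold change -2.67, SE, the standard error, 0.111, adjusted p = 2.35e-09 in edgeR), the 6th largest fall among the 14175 tested genes.
Mt2 (ENSMUSG00000031762, chromosome 8, 94172664 to 94173568, plus strand) had 23.5, 32.2 and 34.7 CPM in horse serum and 1.74, 3.21 and 4.89 CPM in STEM, as lowest, median and highest. The groups were far apart for this gene too, with libraries 2 and 6 the low ones of the horse serum group. Only 27 to 93 counts per STEM library lie behind the STEM values, against 305 to 540 counts with horse serum. The antisense gene Gm45774 overlaps most of Mt2 and held 1 to 14 counts per library, and whether the counting used the strand is not given in the sources used here, so reads of that pair may not be told apart. Mt2 was 9.24-fold lower (log2 fold change -3.21, SE 0.199, adjusted p = 1.52e-07 in edgeR), and no tested gene had a larger fitted fall. Both genes together supplied 109 to 145 CPM in horse serum and 15.4 to 24.5 CPM in STEM.

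Whether both metallothioneins fell by the same amount was examined as the log2 ratio of Mt2 to Mt1 within each library, on CPM with 0.5 added. The ratio was between -2.01 and -1.57 with horse serum and between -2.73 and -1.83 with STEM, and 4 of the 6 STEM libraries lay below every horse serum library. The mean was -1.78 ± 0.143 with horse serum and -2.22 ± 0.321 with STEM (SD, n = 6), a difference of -0.44 (exact permutation test, two-sided, p = 0.013). As plain counts, Mt1 exceeded Mt2 by 2.996 to 4.09 times with horse serum and by 3.82 to 8.26 times with STEM. Mt2 counts were low in STEM, and the difference was -0.09 with 2 CPM added in place of 0.5 (exact permutation test, p = 0.383).
Mt1 and Mt2 transcripts are alike, but the longest stretch of bases shared by any coding transcript of Mt1 and any of Mt2 in GENCODE was 20 bases. With their counts summed into 1 row, the log2 fold change was -2.78 (SE 0.125, adjusted p = 7.9e-09 in edgeR). The brain metallothionein Mt3 and the squamous epithelium metallothionein Mt4, which lie beside them, had at most 7 and 1 counts in any library and were not tested.

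The genes around the metallothioneins on chromosome 8 were taken by position after the values of Mt1 and Mt2 were known. Within 250 kb, 10 other genes were tested, of which 2 were higher (Ogfod1 and Herpud1), 1 was lower (Bbs2) and 7 were not differentially expressed, so 3 of 10 were called, where 36.4% of all tested genes were. Their log2 fold changes lay between -0.22 and 0.42, against -2.67 and -3.21 for the metallothioneins. Bbs2, a gene of the primary cilium, had a log2 fold change of -0.22 (SE 0.053, adjusted p = 0.00527 in edgeR), and Herpud1, a gene of protein quality control in the endoplasmic reticulum, one of 0.17 (SE 0.058, adjusted p = 0.0296).

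**Figure D3:**
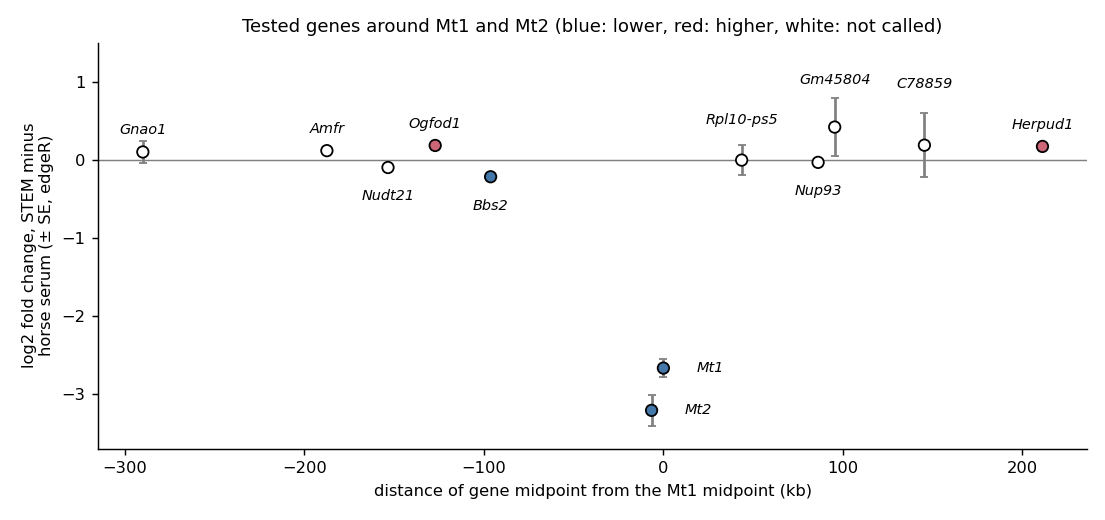
Log2 fold change, STEM minus horse serum, ± standard error (y axis) of the 12 tested genes around Mt1 and Mt2, against the distance of each gene's midpoint from that of Mt1 in kb (x axis). Mt1 and Mt2 lie near -2.67 and -3.21, and the 10 neighbours lie between -0.22 and 0.42.

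Mtf1, whose protein senses zinc and switches on the metallothionein genes, was higher with STEM. Mtf1 (ENSMUSG00000028890, chromosome 4, 124802104 to 124849800, plus strand) had 16.2, 19.7 and 20.8 CPM in horse serum and 20.6, 23.1 and 30.1 CPM in STEM, as lowest, median and highest. The groups overlapped at their edge, with STEM library 10 below the highest horse serum library and STEM library 12 the highest of all. Mtf1 was 1.25-fold higher with STEM (log2 fold change 0.33, SE 0.091, adjusted p = 0.0116 in edgeR), and its log2 fold change was 0.25 with STEM library 12 left out. The gene 1110065P20Rik overlaps Mtf1 on the opposite strand and held 391 to 792 counts per library. Reads of that pair, too, may not be told apart without strand.

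Among the exporters, Slc30a1 went one way and Slc30a5 and Slc30a7 the other. Slc30a1 (ENSMUSG00000037434, chromosome 1, 191906767 to 191913247, plus strand) encodes ZnT1, the exporter of the plasma membrane. Its lowest, median and highest values were 9.34, 9.73 and 13.7 CPM in horse serum and 2.36, 2.87 and 4.00 CPM in STEM. The groups were separate, with library 6 the high one of the horse serum group and library 7 the high one of the STEM group. Slc30a1 was 3.50-fold lower with STEM (log2 fold change -1.81, SE 0.14, adjusted p = 3.58e-07 in edgeR), the 36th largest fall of all tested genes. The STEM values rest on 35 to 98 counts each. Without library 6 the log2 fold change was -1.70.
Slc30a5 and Slc30a7 encode exporters that load zinc into the early secretory pathway, where enzymes such as alkaline phosphatase receive it. Slc30a5 (ENSMUSG00000021629, chromosome 13, 100802648 to 100833427, minus strand) had 64.6, 67.7 and 73.4 CPM in horse serum and 73.8, 77.3 and 80.5 CPM in STEM. Slc30a7 (ENSMUSG00000054414, chromosome 3, 115938973 to 116007406, minus strand) had 53.7, 54.6 and 62.1 CPM in horse serum and 62.5, 68.3 and 75.3 CPM in STEM. In both cases the lowest STEM library lay only just above the highest horse serum library, library 6. Slc30a5 was 1.13-fold higher (log2 fold change 0.18, SE 0.042, adjusted p = 0.00375 in edgeR) and Slc30a7 1.21-fold higher (0.28, SE 0.059, adjusted p = 0.00192).

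Among the importers, Slc39a10 changed most. Slc39a10 (ENSMUSG00000025986, chromosome 1, 46807544 to 46892852, minus strand) encodes ZIP10, an importer of the plasma membrane. It had 23.6, 26.3 and 30.5 CPM in horse serum and 73.4, 83.2 and 87.1 CPM in STEM, as lowest, median and highest. The groups were far apart, and library 6 lay inside the horse serum range at 26.9 CPM. Slc39a10 was 3.13-fold higher with STEM (log2 fold change 1.65, SE 0.065, adjusted p = 3.81e-10 in edgeR). It had the 46th largest rise of all tested genes and the 3rd lowest p-value. The ratio of Slc39a10 to Slc30a1 counts within a library, chosen after the values were seen, was between 1.96 and 3.11 with horse serum and between 18.4 and 36.9 with STEM, a ratio that no scaling of the libraries can move.
Slc39a6 (ENSMUSG00000024270, chromosome 18, 24579881 to 24603817, minus strand) encodes ZIP6, a close relative of ZIP10 with which it can form a complex. Its values were 28.1, 30.3 and 43.4 CPM in horse serum and 37.2, 38.7 and 41.3 CPM in STEM. The highest horse serum value was library 6, which lay above every STEM library, while the other 5 horse serum libraries lay below every STEM library. The log2 fold change was 0.28 (SE 0.089, adjusted p = 0.0232 in edgeR) with all libraries and 0.39 (SE 0.049, adjusted p = 2.66e-06) without library 6. The call was lost when horse serum library 2, 3, 4 or 5 or STEM library 7 was left out instead, with adjusted p between 0.0505 and 0.058. Elp2 overlaps Slc39a6 on the opposite strand with 952 to 2086 counts per library, and reads of that pair may not be told apart without strand.
Slc39a1 (ENSMUSG00000052310, chromosome 3, 90248172 to 90253612, plus strand), a broadly expressed importer of the plasma membrane, had 132, 138 and 142 CPM in horse serum and 145, 153 and 162 CPM in STEM, a narrow gap between groups that did not overlap. Its 1.11-fold rise (log2 fold change 0.15, SE 0.039, adjusted p = 0.00628 in edgeR) was the smallest among the 9 genes that passed. Slc39a14 (ENSMUSG00000022094, chromosome 14, 70303469 to 70351425, minus strand), an importer that also carries iron and manganese, had 42.2, 52.0 and 79.6 CPM in horse serum and 56.0, 57.7 and 65.9 CPM in STEM. Library 6 was again the high one of the horse serum group, above all STEM libraries. Slc39a14 did not pass the test with all libraries (log2 fold change 0.12, SE 0.121, 95% interval -0.15 to 0.39, adjusted p = 0.456 in edgeR), while without library 6 its log2 fold change was 0.26 (SE 0.064, adjusted p = 0.00216).

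**Figure D4:**
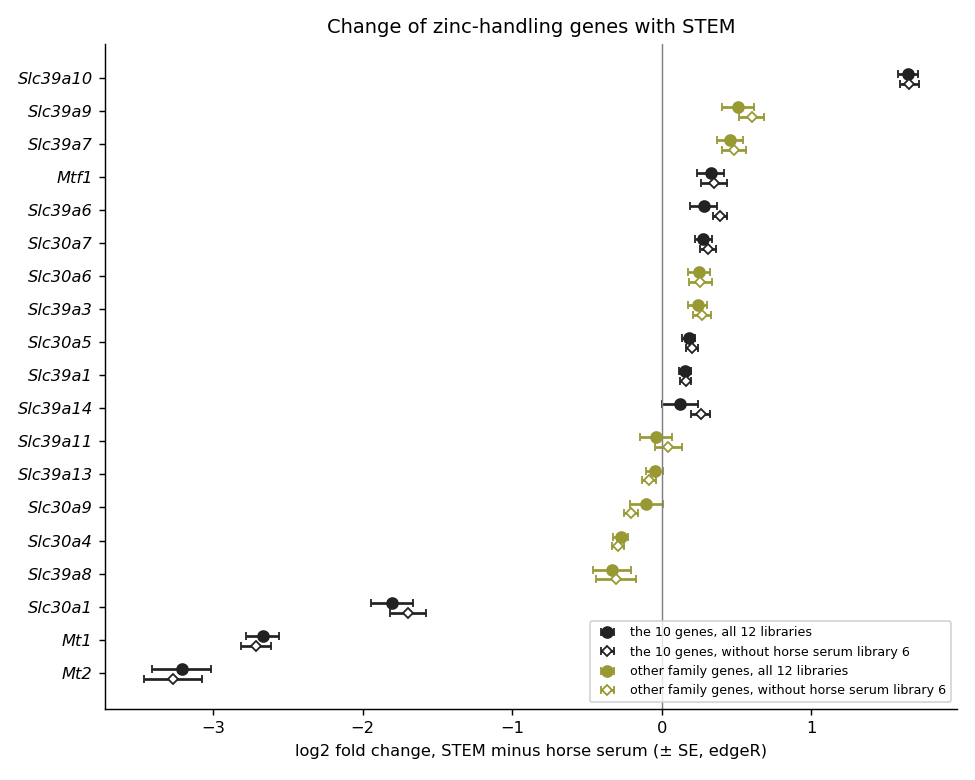
Log2 fold change, STEM minus horse serum, with its standard error from edgeR (x axis) for the 10 genes (black) and the 9 tested other genes of the Slc30 and Slc39 families (olive), with all libraries (filled) and without horse serum library 6 (open). Mt2, Mt1 and Slc30a1 lie between -3.27 and -1.70 and Slc39a10 near 1.65, while the other genes lie between -0.33 and 0.60.

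Levels were compared between genes as CPM per kb of annotated exons. With horse serum, Mt1 had the highest level (82.9 ± 8.67 CPM per kb, SD, n = 6), followed by Slc39a1 (58.1 ± 1.46) and Mt2 (51.0 ± 8.56). The ranges of Slc39a1 and Mt2 overlapped, while Mt1 was above both in every library. Slc30a5 came next (9.34 ± 0.407 CPM per kb), then Slc39a6 (7.90 ± 1.36), Slc39a14 (5.20 ± 1.21), Slc30a7 (5.06 ± 0.316) and Slc39a10 (4.30 ± 0.412). Slc39a6 overlapped in range with Slc30a5 and Slc39a14, as did Slc39a14, Slc30a7 and Slc39a10 among themselves. The lowest levels were those of Mtf1 (2.16 ± 0.197 CPM per kb) and Slc30a1 (1.98 ± 0.315), whose ranges overlapped.
With STEM, Slc39a1 had the highest level (64.6 ± 2.62 CPM per kb, SD, n = 6), and the next were Slc39a10 (13.5 ± 0.766) and Mt1 (12.97 ± 2.37), whose ranges overlapped. The range of Slc30a5 (10.6 ± 0.342) also overlapped that of Mt1. Mt2 was at 5.44 ± 2.01 CPM per kb, with a range that covered those of Slc30a7 and Slc39a14, and Slc30a1 was lowest at 0.559 ± 0.113. Thus the most abundant transcript of the set per length was Mt1 with horse serum and Slc39a1 with STEM. The annotated exons of Mt1 cover 1246 bases because some transcripts keep introns, whereas its principal transcript has 549 bases. Per kb of the principal transcript Mt1 stood at 188 ± 19.7 with horse serum and 29.4 ± 5.39 CPM per kb with STEM, and the first place in each group was held by the same gene as before. Lower places moved. On this measure with STEM, Mt1 and Slc30a5 (24.3 ± 0.784) had higher means than Slc39a10 (14.9 ± 0.849). With horse serum the means of Mt2 (58.6 ± 9.84) and Slc39a1 (58.1 ± 1.46) were close.

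**Figure D5:**
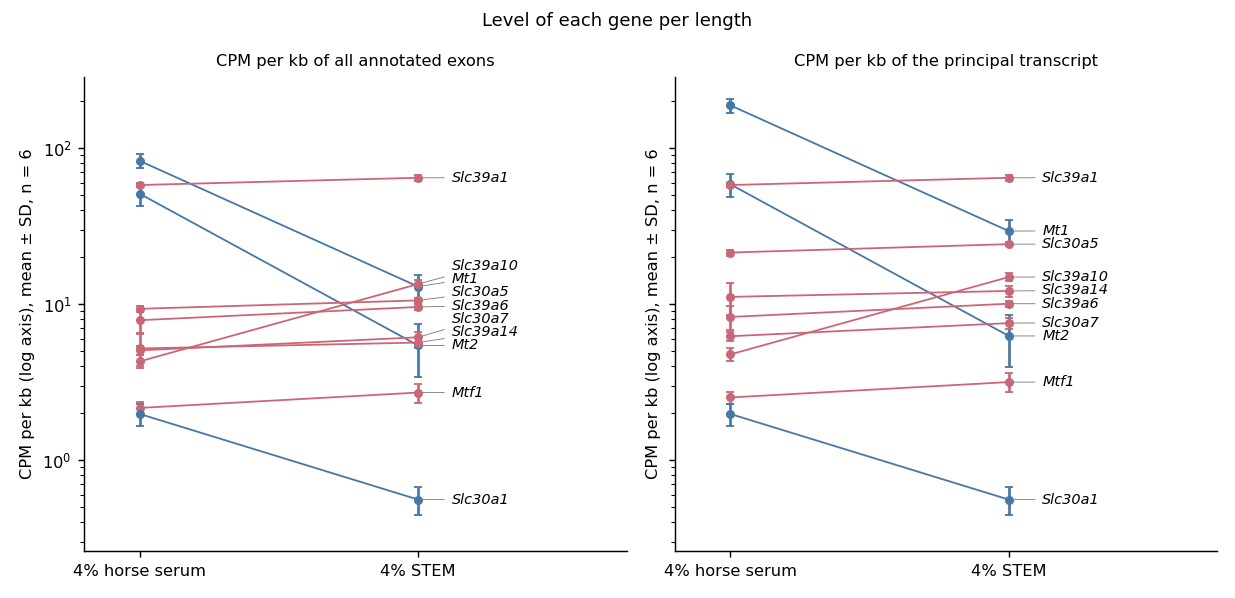
Mean CPM per kb (log axis, bars ± SD, n = 6 libraries) of the 10 genes with horse serum and with STEM, per kb of all annotated exons (left) and of the principal transcript (right). Lines are blue where the mean was lower and red where it was higher with STEM; Mt1 is highest with horse serum and Slc39a1 with STEM in both panels, and Slc30a1 is lowest.

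The other genes of these families were examined as 19 genes, Mt3, Mt4 and the remaining Slc30 and Slc39 genes, of which 9 had enough counts to be tested. Of the 9, 4 were higher and 2 lower with STEM at the same threshold, where 18.9% of all tested genes were higher and 17.4% lower, and none reached the size of Slc39a10 or Slc30a1. Higher were Slc39a9, an importer of the Golgi (log2 fold change 0.51, SE 0.107, adjusted p = 0.00197 in edgeR), Slc39a7, which releases zinc from the endoplasmic reticulum (0.46, SE 0.084, adjusted p = 0.000677), Slc30a6, the partner of Slc30a5 (0.25, SE 0.074, adjusted p = 0.0159), and Slc39a3 (0.24, SE 0.064, adjusted p = 0.00882). Lower were Slc30a4, an exporter of vesicles (-0.27, SE 0.049, adjusted p = 0.000517), and Slc39a8, an importer of zinc and manganese (-0.33, SE 0.124, adjusted p = 0.047). The most abundant transporters of this second set were Slc30a4 and Slc30a9. Slc30a4 was at 243 ± 9.43 CPM in horse serum and 200.4 ± 13.3 CPM in STEM (SD, n = 6), without overlap between its groups. Slc30a9 was at 237 ± 42.1 CPM in horse serum, with library 6 lowest at 152 CPM, and at 221 ± 15.5 CPM in STEM. Slc30a9, Slc39a11 and Slc39a13 did not pass. Without library 6 the number was again 6 (4 higher and 2 lower, where 26.3% of all tested genes were higher and 24.5% lower), with Slc30a9 now called lower (log2 fold change -0.20, adjusted p = 0.000903) and Slc39a8 not called (adjusted p = 0.0601). The 10 genes that were not tested include the pancreatic exporter Slc30a8 and the intestinal importer Slc39a4, which are known for their roles in other tissues.

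Of 5 other genes with reported dependence on Mtf1, 3 were lower with STEM, 0 were higher and 2 (Slc40a1 and Pgf) did not pass, where 17.4% of all tested genes were lower and 18.9% higher. Selenoh, a nuclear selenoprotein gene, had 23.4 ± 7.70 CPM in horse serum and 10.1 ± 1.61 CPM in STEM (SD, n = 6, log2 fold change -1.22, adjusted p = 0.000221 in edgeR) without overlap between the groups. Library 6 was the highest at 38.5 CPM, and without it the log2 fold change was -1.01. Ndrg1, which also responds to low oxygen, had a log2 fold change of -1.21 (SE 0.315, adjusted p = 0.0116), with library 6 at 196 CPM against a mean of 301 CPM in STEM, and one of -1.40 without that library. Csrp1, a LIM domain protein gene, had a log2 fold change of -0.58 (SE 0.052, adjusted p = 1.49e-06). Each count of the list was the same without library 6, where 24.5% of all tested genes were lower.

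The genes whose profile lay closest to that of Mt1 were found by the root mean square difference of centred log2 CPM over the 12 libraries, among the other 14174 tested genes. The nearest were Col14a1 (0.297), Pi15 (0.321), Slc1a6 (0.376), Mt2 (0.382) and Gm47523 (0.469). Mt2 was therefore 4th on this measure, behind a collagen gene, a peptidase inhibitor gene and a glutamate transporter gene, and each of the 5 was lower with STEM. The measure takes size and direction together, so genes picked as nearest to Mt1 are lower with STEM by the choice itself. All of these profiles share the same libraries. Slc1a6 (0.42 CPM) and Gm47523 (0.48 CPM) were low in STEM, where the prior count of 2 shapes log2 CPM and so their ranks.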

How the data were processed

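Total RNA was sequenced after removal of ribosomal RNA with a kit that keeps strand, and the authors deposited raw read counts per Ensembl gene on build GRCm38 (mm10), without normalization. STAR 2.7.3a, featureCounts 1.6.3 and DESeq2 1.26.0 are named in the submitters' processing notes; the annotation release and strand setting are not given in the sources used here. The 12 libraries, 6 per group by their titles, held 13285472 to 24536264 counts. No pair within a group was as close as 1 library deposited again (chi-square per degree of freedom 3.29 to 68.5).

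Symbols, positions and lengths came from GENCODE M21 (GRCm38), which held 55227 of 55487 genes, and start regions from RefSeq (GRCm38.p6), which held 8 of the 10 genes. Counts were tested with edgeR 4.0.16 in R 4.3.3 (TMM, filterByExpr, robust glmQLFit, glmQLFTest) with Benjamini-Hochberg adjustment over 14175 genes, called at 0.05 or less. CPM are relative to TMM-normalized totals, and log2 CPM used a prior count of 2. The Mt2 to Mt1 ratio was tested by an exact permutation test. Alternatives were other scalings and filters, DESeq2 1.42.0, limma-voom (limma 3.58.1), thinning to the lowest total and leaving out each library. The counts of lists and of genes without overlap were also taken without horse serum library 6, an alternative added after seeing the data. The scripts were tested on simulated data, where edgeR recovered 83 of 100 2-fold changes at the same threshold. Of the calls there, 6.63% were false with edgeR, 13.5% with DESeq2 and 6.19% with limma-voom. The simulation was a single draw in which 100 genes changed 4-fold and 100 changed 2-fold, of 14035. It held no library that stood apart as horse serum library 6 does, so these rates need not hold for the real calls.

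The genes, lists and tests were chosen with earlier results of these data known. Named were the 10 genes, every called gene of the family, Mtf1-dependent, copper, glucocorticoid and NRF2 lists, and the 5 genes nearest to Mt1; other genes were named after their values were seen.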

Additional observations from a re-analysis of the deposited data

Results flagged for a closer look

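In 3 of the 22 groups of 6 values examined (10 genes and the Mt2 to Mt1 ratio, in each group), 1 library lay far from the other 5 by Dixon's criterion, which chance meets in about 1 of 20 groups. All 3 were horse serum library 6. Slc30a1 was at 13.7 CPM there, with the next value at 10.2 CPM. Slc39a6 was at 43.4 CPM, with the next value at 30.6 CPM. Slc39a14 was at 79.6 CPM, with the next value at 53.4 CPM. The same library had the fewest myotube marker counts (6463 CPM) and the most summed counts of unfused and cycling cell markers (863 CPM) of its group. Pax7 and Myf5, of those markers, were lowest in that library. The part of these marker levels in the 3 values was not tested.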

How the results depend on the processing

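No paired analysis was possible because the 2 groups share no library numbers in the labels. With the other scalings and filters, DESeq2, limma-voom and thinned counts, 9 of the 10 genes were called in each case, 6 higher and 3 lower. With no filter on low counts, 4648 of 29620 genes (15.7%) were called. The rest of these alternatives called 34.6% to 38.2% of tested genes, at most 5338 genes with DESeq2. With 1 library left out, 8 to 10 of the 10 genes were called (5 to 7 higher and 3 lower) and 5 to 6 of the other family genes. Of all tested genes, 4459 to 7245 (31.2% to 50.8%) were called, the highest without horse serum library 6. Genes without overlap rose from 2439 to 4749 without that library (17.2% to 33.3% of tested genes). The log2 fold change over the libraries left out was -2.77 to -2.61 for Mt1, -3.36 to -3.09 for Mt2, -2.87 to -2.72 for both summed, -1.94 to -1.70 for Slc30a1 and 1.62 to 1.69 for Slc39a10. The Mt2 to Mt1 ratio differed by -0.52 to -0.34 over the libraries left out and by -0.092 with a pseudocount of 2 CPM (exact permutation test, p = 0.383), and by -0.57 with 0.1 CPM (exact permutation test, p = 0.00649). A pseudocount of 2 CPM is large beside Mt2 levels of 1.74 to 4.89 CPM with STEM. Slc39a6 lost its call in 5 of the 12 fits with a library left out, and Slc39a14 gained one without horse serum library 6. No log2 fold change of the 10 genes changed sign under any of these alternatives. Depth limits Mt2 and Slc30a1 most, with 27 to 93 and 35 to 98 counts per STEM library.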

Other observations

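Copper, which metallothioneins also bind, has its own handling genes. Of 7 tested (of 8), 2 were lower with STEM, where 17.4% of all tested genes were, and 5 did not pass. Cp, the gene of the copper-carrying ferroxidase ceruloplasmin, was at 243 ± 36.7 CPM in horse serum and 102 ± 8.42 CPM in STEM (SD, n = 6, log2 fold change -1.25, adjusted p = 4.95e-07 in edgeR), and Slc31a2, a relative of the copper importer Slc31a1, had a log2 fold change of -0.39 (adjusted p = 0.00244). The values of Slc31a1, the copper exporter gene Atp7a and the chaperone genes Atox1 and Ccs lay between -0.05 and 0.07 on the log2 scale. Without horse serum library 6, Cox17 was also called lower (-0.20, adjusted p = 0.00322), where 24.5% of all tested genes were lower.

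Glucocorticoids and oxidative stress are also known to induce metallothioneins. Of 5 tested glucocorticoid-induced genes (of 6), 3 were lower with STEM, Tsc22d3 (log2 fold change -0.44), Klf9 (-0.32) and Per1 (-0.53), 1 was higher, Sgk1 (0.23, adjusted p = 0.0456), and Fkbp5 did not pass, where 17.4% of all tested genes were lower and 18.9% higher. Without library 6 Fkbp5 was called higher (0.24, adjusted p = 0.00102). Of 7 NRF2-induced genes, 4 were higher, 0 lower and 3 did not pass, where 18.9% of all tested genes were higher and 17.4% lower. The largest rises were those of the cystine transporter gene Slc7a11 (log2 fold change 1.02, standard error 0.219, adjusted p = 0.0026) and of Gclc (0.96, standard error 0.115, adjusted p = 3.11e-05), the catalytic subunit of glutathione synthesis. Hmox1 (0.28, adjusted p = 0.0061) and Srxn1 (0.25, adjusted p = 0.0355) were also higher, and without library 6 the number higher was 6, where 26.3% of all tested genes were higher, and Slc7a11 had a log2 fold change of 1.31. The 7 genes summed to 288 CPM in library 6, against 184 to 200.2 CPM in the other horse serum libraries and 254 to 298 CPM with STEM. The part of these genes in the values of Mt1 and Mt2 was not tested.

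Among the STEM libraries, Mt1 and Slc30a1 varied together in log2 CPM (r = 0.932, exact permutation p = 0.00278, adjusted p = 0.0167, rho = 0.943, exact permutation p = 0.0167, adjusted p = 0.1, n = 6, over 6 relations of Mt1, Mt2 and Slc30a1 chosen after the values were seen). Without the 2 libraries farthest from the median of Mt1, r was 0.855 over 4 libraries. STEM library 7, the deepest at 24536264 counts, was the highest for both genes. Both also fell with library number. Mt1 went from 20.7 CPM in STEM library 7 to 13.2 in library 11 and 13.9 in library 12. Slc30a1 fell at each step, from 4.00 CPM in library 7 to 2.36 CPM in library 12. The permutation test takes no account of library order, so a relation of the genes and a shared trend over the libraries cannot be told apart. Within the horse serum group the same relation had r = -0.736 (exact permutation p = 0.164, adjusted p = 0.246) and rho = 0.086 (exact permutation p = 0.919), and r was 0.677 without the 2 farthest libraries. None of the other 4 relations passed after adjustment.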
